A study of Mus musculus with 18 samples.

Results

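The measurement described here is a difference of differences in the mouse mammary gland: the change 2 weeks after the carcinogen DMBA in Cip2a-/- glands minus the same change in wild-type (WT) glands. It rests on 12 of the 18 RNA-sequencing libraries of the series, chosen by their labels alone, with 3 libraries in each of 4 groups: WT untreated, Cip2a-/- untreated, WT 2 weeks and Cip2a-/- 2 weeks. All mice were of mixed C57BL/6Jx129 background, and the gland tissue was collected without its lymph nodes. Mice of the 2-week groups were fed 1 mg of DMBA (7,12-dimethylbenz[a]anthracene) dissolved in oil by gavage each week for 6 weeks, from an age of 12 to 14 weeks, and their glands were taken 2 weeks after dose 6. Untreated mice are labelled as having no treatment, and the sources used here name neither an oil-only control nor the age of the untreated mice, so that DMBA, gavage, oil and age cannot be told apart within a genotype. The labels give the genotype only as Cip2a-/- and name no Cre driver, allele or clone. The labels do not tie each library to a mouse of its own, and p-values here measure the spread between these libraries.

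Cip2a encodes an endogenous inhibitor of the protein phosphatase PP2A, which removes phosphates from Myc and many other proteins and so opposes growth signalling. DMBA is activated by cytochrome P450 enzymes, which are induced through the aryl hydrocarbon receptor, and microsomal epoxide hydrolase is part of the same activation route. The resulting DNA adducts activate p53, whose targets halt the cell cycle, repair DNA or start apoptosis. An interaction asks whether these responses depend on the genotype. A positive value means that the level changed more upward, or less downward, with DMBA in Cip2a-/- glands than in WT glands.

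Total counts in the 12 libraries ranged from 16121743 to 24586404, and levels are given as CPM, the depth-scaled count after TMM scaling. Cip2a, listed as C330027C09Rik, had 42, 29 and 15 reads in the WT untreated libraries, 65, 71 and 67 in the WT 2-week libraries, 1, 1 and 0 in the Cip2a-/- untreated libraries and 0 in each Cip2a-/- 2-week library. WT glands thus had at least 61.2-fold more at 2 weeks, counted over the group against a floor of 3 reads. The genotype labels and this gene went together in all 12 libraries, and with 0 reads in a group its own interaction gives no fold. The tissue was mixed, as its markers show: over the 12 libraries the summed skeletal muscle markers (3 of 3 measured) ranged from 33.2 to 43261 CPM, with the highest value in Cip2a-/- 2 weeks library 1, and the B cell markers (4 of 4) from 0.754 to 445 CPM, with the highest in Cip2a-/- untreated library 3. Lymph node stroma markers (Ccl19, Cxcl13 and Madcam1, with Ccl21a at 0 throughout) summed to 176 CPM in that same library, 55.0 in WT untreated library 1, 37.5 in Cip2a-/- untreated library 1 and 35.9 in Cip2a-/- 2 weeks library 2, the 4 libraries with the most B cell RNA, and to at most 10.6 CPM in the others. White fat markers (3 of 3) stayed between 3918 and 7914 CPM and luminal epithelial markers (3 of 3) between 323 and 1571 CPM. In such bulk tissue, fewer cells of a type and less RNA per cell cannot be told apart.

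None of the 15482 genes tested passed an adjusted p of 0.05 for the interaction by edgeR's quasi-likelihood test (0% called). At an unadjusted p under 0.05 there were 449 genes (2.90%), of which 197 (1.27%) had a positive and 252 (1.63%) a negative value. The fitted interaction was above 0 in 7601 genes (49.1%), with a median of -0.01 on the log2 scale. Fitted to the 12 libraries alone, without the endpoint groups, the same test called 0 of 15201 genes and left 1172 at an unadjusted p under 0.05 (7.71%), 612 positive (4.03%) and 560 negative (3.68%). DESeq2 called 7 genes and limma's voom with sample quality weights called 13. The DMBA effect itself called 0 genes in WT glands (0%) and 2 genes (0.0129%), Ephx1 and Gdf15, in Cip2a-/- glands. At an unadjusted p under 0.05 the DMBA effect had 655 genes in WT (4.23%), 450 higher (2.91%) and 205 lower (1.32%), and 702 in Cip2a-/- glands (4.53%), 320 higher (2.07%) and 382 lower (2.47%). The fitted effect was above 0 in 47.7% of genes in WT and 50.3% in Cip2a-/- glands. A call in one genotype alone does not show that the genotypes differ, and neither of these passed the interaction test.

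Some genes differed in opposite directions in the genotypes. In 86 genes (0.555%) all 3 WT 2-week libraries lay below all 3 WT untreated libraries, while all 3 Cip2a-/- 2-week libraries lay above all 3 Cip2a-/- untreated ones. In 68 genes (0.439%) the order was the opposite in both genotypes. Scaled by total count alone, in place of TMM, these became 41 and 129 genes, so the balance between the directions depends on the scaling. The treated and untreated groups did not overlap in 14.2% (higher after DMBA) and 11.6% (lower) of genes in WT, and in 6.93% and 5.48% in Cip2a-/- glands. In all, 188 genes (1.21%) were higher after DMBA without overlap in both genotypes and 91 (0.588%) were lower in both. The rankings that follow leave out genes known only by a clone name and those with a mean under 1 CPM. Among the 10 of smallest p with a positive interaction, the fitted level of every one was lower in Cip2a-/- than in WT untreated glands and higher in Cip2a-/- than in WT glands 2 weeks after DMBA. Among the 9 reported here with a negative one, 8 were the opposite, and Ifi202b was the exception. The interaction equals the genotype difference at 2 weeks minus that in untreated glands. Ranking by it favours this pattern, which is therefore no separate finding.

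Atp6v0e2, which encodes an e subunit of the membrane sector of the vacuolar proton pump that acidifies lysosomes and endosomes, had the smallest interaction p of all genes. It lies on chromosome 6 (48537615 to 48541801, plus strand, GRCm38). Its level was 61.1, 49.1 and 52.9 CPM in WT untreated and 21.6, 28.0 and 24.9 CPM in WT 2-week libraries. In Cip2a-/- glands it was 25.9, 23.5 and 34.4 CPM untreated and 45.9, 38.0 and 41.4 CPM at 2 weeks. Every treated WT library was thus below every untreated WT library, and every treated Cip2a-/- library was above every untreated one. The WT 2-week and Cip2a-/- untreated levels overlapped. The DMBA effect on the log2 scale was -1.13 ± 0.18 (SE) in WT and 0.58 ± 0.17 in Cip2a-/- glands, an interaction of 1.71 ± 0.25 (95% interval 1.18 to 2.24). The unadjusted p was 6.1e-06 and the adjusted p by edgeR 0.0946, which missed the threshold; with DESeq2 it was 6.1e-07, with weighted voom 0.00478, and without Cip2a-/- untreated library 3, the highest of its group, 0.0368. The genotype difference (Cip2a-/- minus WT) was -0.96 in untreated glands, 0.75 at 2 weeks and 0.13 at the endpoint.

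**Figure D1:**
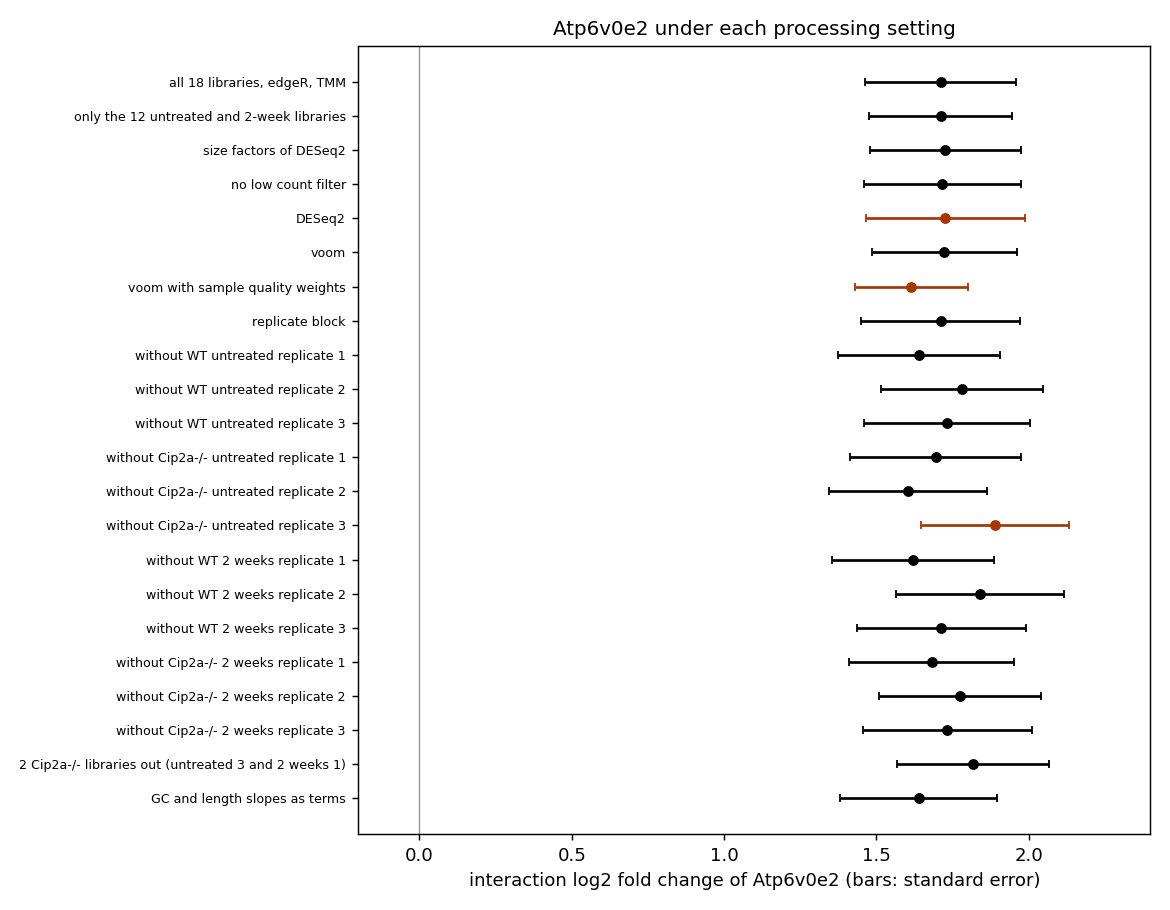
Interaction log2 fold change of Atp6v0e2 (horizontal axis) with its standard error (bars) under each processing setting, 1 setting per line, in brown where the adjusted p was under 0.05. All values lay between 1.60 and 1.89, and the adjusted p was under 0.05 with DESeq2, with weighted voom and without Cip2a-/- untreated library 3.

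The bases just before the Atp6v0e2 start are shown because this gene led the contrast and because genes of lysosomal acidification are known to share the E-box CACGTG, the core of the site bound by the lysosomal regulator Tfeb. Mcoln1, a lysosomal calcium channel of the same list, is shown beside it as a promoter that holds the motif and was picked after its values were seen. Both are RefSeq windows of 250 bases, 5′ to 3′, on the plus strand of GRCm38.p6, at chr6:48537319-48537568 and chr8:3500269-3500518, with CACGTG in capitals. RefSeq starts Atp6v0e2 upstream of the GENCODE start given above, and the window ends at the RefSeq start.
Atp6v0e2: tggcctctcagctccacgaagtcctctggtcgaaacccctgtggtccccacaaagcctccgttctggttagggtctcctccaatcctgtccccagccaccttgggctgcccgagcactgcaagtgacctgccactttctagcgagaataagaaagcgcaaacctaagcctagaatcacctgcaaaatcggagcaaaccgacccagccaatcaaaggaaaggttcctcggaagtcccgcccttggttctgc
Mcoln1: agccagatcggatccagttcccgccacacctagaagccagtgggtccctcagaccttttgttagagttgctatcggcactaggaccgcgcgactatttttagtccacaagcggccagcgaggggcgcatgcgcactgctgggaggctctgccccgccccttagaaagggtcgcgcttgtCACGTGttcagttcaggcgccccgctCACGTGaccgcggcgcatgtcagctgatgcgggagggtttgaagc
The Atp6v0e2 window held 0 copies of CACGTG, a sequence that reads the same on both strands, and the Mcoln1 window held 2. Mcoln1 had an interaction of 0.15 ± 0.18. Of the 18 matched genes of the V-ATPase and lysosome list, 13 had a window in the RefSeq table. At a listed start 5 of these (38.5%) held the motif, against 1854 of 27025 genes (6.86%) in the whole table. As such genes are known to share the motif, the higher share is background and no result about the interaction. Among the proton pump subunits with a window, Atp6v1a held it. Atp6v0a1, Atp6v0c, Atp6v0d1 and Atp6v0e lacked it, as Atp6v0e2 did. The other genes with the motif were Ctsd, Ctsl, Lamp1 and Mcoln1.

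The V-ATPase and lysosome list, proton pump subunits and lysosomal enzymes and membrane proteins, had 15 of 17 tested members with a positive interaction, against 49.1% of all genes, and 0 passed the test. Its median interaction was 0.25, from a median DMBA effect of -0.13 in WT and 0.20 in Cip2a-/- glands. Atp6v0a1, a large membrane subunit of the same pump, was at 174, 165 and 184 CPM in WT untreated, 149.8, 158 and 126 CPM in WT 2-week, 137, 129 and 127 CPM in Cip2a-/- untreated and 122, 174 and 220.1 CPM in Cip2a-/- 2-week libraries. The WT groups did not overlap and the Cip2a-/- groups did, because library 1 of the treated group was low (interaction 0.66 ± 0.30, unadjusted p = 0.046). The median was 0.13 without Cip2a-/- 2 weeks library 3. With each library's GC and length slopes as terms in the fit, 9 of 17 members were positive and the median was 0.03.

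**Figure D2:**
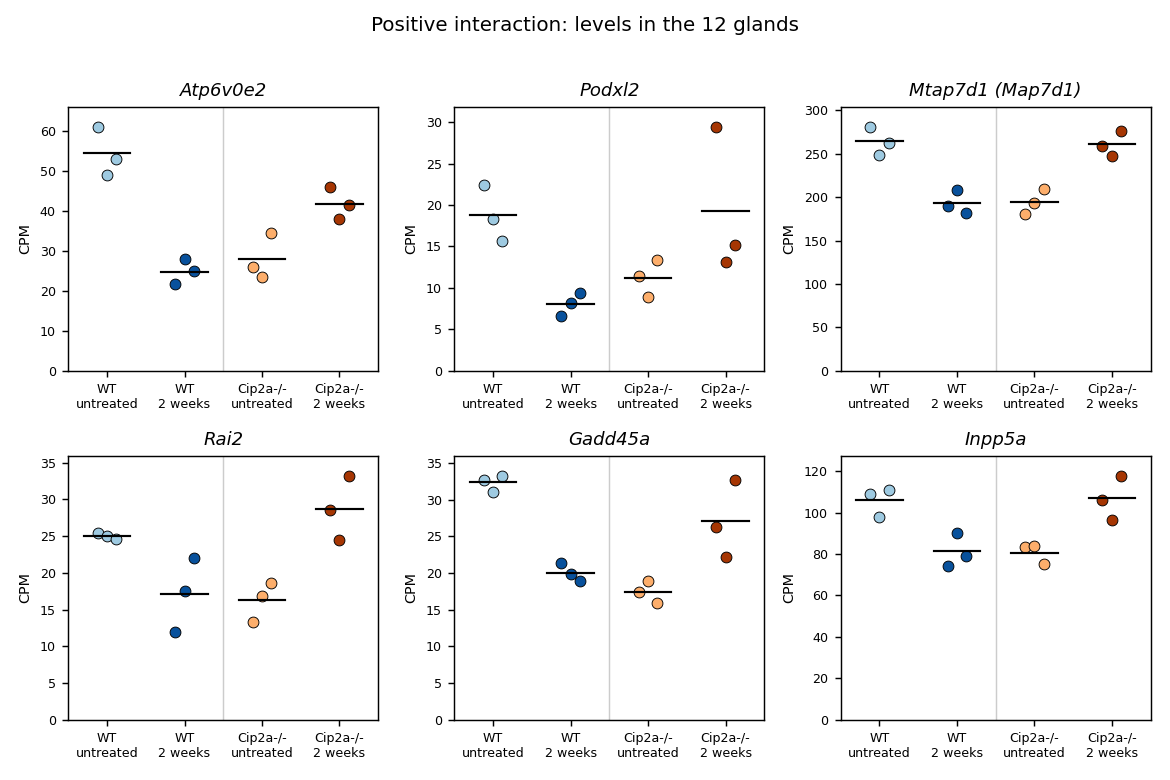
CPM (vertical axis, linear from 0) of 6 genes with a positive interaction in the 12 libraries, by group. Points are libraries and lines are group means. In each gene the WT 2-week points lie below the WT untreated points and the Cip2a-/- 2-week mean lies above the Cip2a-/- untreated mean.

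Mtap7d1 (now Map7d1), a microtubule-binding protein, was at 281, 249 and 263 CPM in WT untreated, 190.2, 208 and 182 CPM in WT 2-week, 180.4, 194 and 209 CPM in Cip2a-/- untreated and 259, 247 and 277 CPM in Cip2a-/- 2-week libraries. Its levels crossed with no overlap within either genotype, with an interaction of 0.88 ± 0.20. Ube2r2, a ubiquitin-conjugating enzyme that works with cullin ligases, was at 190.1, 179 and 181 CPM in WT untreated and 162, 155 and 164 CPM in WT 2-week libraries, against 144, 152 and 142 CPM and then 197, 184 and 193 CPM in Cip2a-/- libraries. This small change (interaction 0.58 ± 0.15) also crossed without overlap, with a narrow spread in every group. Both were among the genes called by DESeq2, with adjusted p of 0.00256 for Mtap7d1 and 0.00189 for Ube2r2. DESeq2 also called Podxl2 (adjusted p = 0.0260) and Ifi202b (adjusted p = 0.0359), described below, the latter with libraries at 0 CPM.

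Podxl2, a sialomucin of the podocalyxin family, had the second smallest p among positive interactions (2.00 ± 0.42, unadjusted p = 0.00031). It was at 22.4, 18.3 and 15.7 CPM in WT untreated and 6.55, 8.18 and 9.42 CPM in WT 2-week libraries, and at 11.4, 8.86 and 13.4 CPM in Cip2a-/- untreated and 29.5, 13.1 and 15.1 CPM in Cip2a-/- 2-week libraries. The WT groups were far apart, while the Cip2a-/- groups overlapped and library 1 alone stood high after DMBA. A gene on the other strand, Gm15612, overlaps Podxl2, and without a stated strand setting reads from the pair cannot be told apart. Genes on the other strand also overlap Ube2r2, Fam150b, Fgf13, Serpinb6a, Inpp5a, Clcn6, Tubgcp6, Zfp646, Tet3, Dot1l, Gadd45a, Celf5 and Cdkn1a in the annotation, and the same holds for them. Rai2, a transcriptional co-regulator, was at 25.5, 25.01 and 24.5 CPM and then 11.9, 17.5 and 22.0 CPM in WT, and at 13.3, 16.8 and 18.6 CPM and then 28.6, 24.4 and 33.2 CPM in Cip2a-/- libraries. Its interaction was 1.37 ± 0.38, and Inpp5a, an inositol phosphate 5-phosphatase, crossed in the same way with 0.79 ± 0.25.

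The remaining 5 positive genes did not cross. Cltb, a clathrin light chain, had 0.84 ± 0.25, and its Cip2a-/- levels went from between 74.8 and 85.0 CPM to between 107 and 131 CPM while the WT groups overlapped. Zfp385a, a zinc finger protein that binds p53, had 1.10 ± 0.29. Fgf13, an intracellular growth factor homologue that binds sodium channels and microtubules, had 2.09 ± 0.63, and Serpinb6a, an intracellular protease inhibitor, had 1.25 ± 0.38. Fam150b (now Alkal2), a ligand of the receptor kinases Alk and Ltk, had 3.37 ± 1.01 from few reads, 308 over the 12 libraries, and 1.66 without WT untreated library 2. It was at 2.33, 2.498 and 2.83 CPM in Cip2a-/- 2-week libraries, above the 0.359 to 0.695 CPM of the untreated ones, and WT untreated library 2 alone (3.57 CPM) was higher.

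Mdc1, the scaffold that binds phosphorylated histone H2AX at DNA breaks, had a negative interaction and was at 33.7, 30.5 and 36.6 CPM in WT untreated and 49.7, 40.6 and 48.4 CPM in WT 2-week libraries. In Cip2a-/- libraries it was at 49.1, 51.5 and 45.1 CPM untreated and 37.2, 36.3 and 30.8 CPM at 2 weeks. Its levels crossed without overlap, with an interaction of -0.94 ± 0.27. Dot1l, the methyltransferase for lysine 79 of histone H3, was at 65.2, 50.6 and 65.6 CPM and then 106, 99.4 and 82.0 CPM in WT, and at 114, 99.1 and 81.8 CPM and then 78.3, 62.1 and 61.4 CPM in Cip2a-/- libraries (-1.21 ± 0.35, crossing). Tet3, a dioxygenase that oxidises 5-methylcytosine, was at 51.4, 47.0 and 57.2 CPM and then 101, 91.5 and 80.3 CPM in WT libraries. In Cip2a-/- libraries Tet3 overlapped, at 91.0, 77.1 and 65.1 CPM untreated and 74.1, 70.7 and 60.9 CPM treated (interaction -0.99 ± 0.26).

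**Figure D3:**
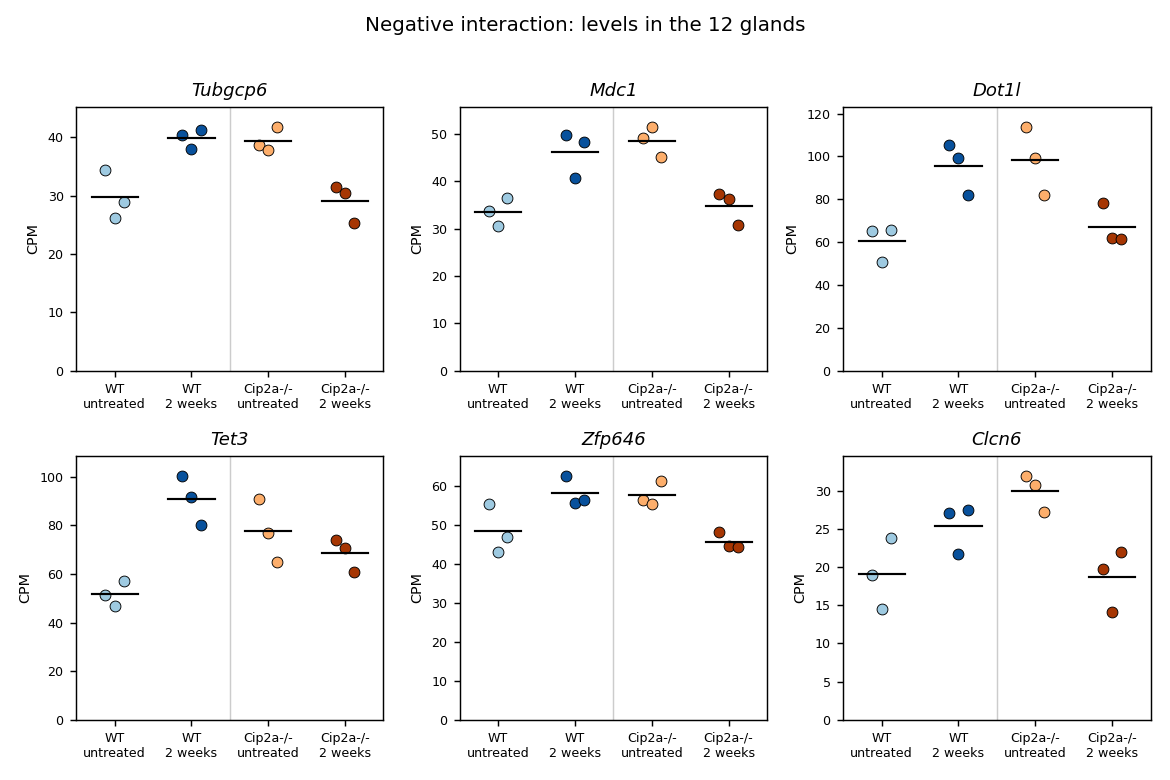
CPM (vertical axis, linear from 0) of 6 genes with a negative interaction in the 12 libraries, by group. Points are libraries and lines are group means. The WT 2-week mean lies above the WT untreated mean and the Cip2a-/- 2-week mean below the Cip2a-/- untreated mean in each gene; Mdc1, Dot1l, Tubgcp6 and Zfp646 do not overlap within a genotype.

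Tubgcp6, a component of the gamma-tubulin ring complex that nucleates microtubules, was at 34.4, 26.1 and 28.9 CPM and then 40.4, 37.9 and 41.3 CPM in WT libraries. In Cip2a-/- libraries it was at 38.7, 37.7 and 41.8 CPM and then 31.5, 30.4 and 25.3 CPM, again without overlap (-0.86 ± 0.22). The zinc finger gene Zfp646 crossed in the same way (-0.60 ± 0.16). Clcn6, a chloride-proton exchanger of late endosomes, had -1.10 ± 0.29, Cmtm4, a membrane protein that stabilises PD-L1, had -1.30 ± 0.36, and Zmym3, a zinc finger protein of chromatin complexes, had -0.62 ± 0.17. None of these passed the edgeR test after adjustment, and Tubgcp6 and Dot1l reached an adjusted p of 0.0452 only with voom and sample quality weights. The 252 genes with a negative interaction at an unadjusted p under 0.05 had a median transcript length of 2030 bases, against 1352 bases for the 197 positive and 1481 bases for all genes tested. Each gene's log2 level was centred on its mean over the 18 libraries and fitted jointly to log2 transcript length and GC content. The slopes are thus relative to the other libraries. On length the slope was from 0.05 to 0.08 in WT 2-week libraries and from -0.03 to 0.03 in WT untreated ones. In Cip2a-/- libraries these slopes overlapped, from 0.01 to 0.06 untreated and from -0.01 to 0.07 at 2 weeks. The slope on GC content, per 10 percentage points, was from 0.02 to 0.19 in WT untreated and from -0.14 to -0.08 in WT 2-week libraries, without overlap. It was from -0.22 to 0.01 in Cip2a-/- untreated and from -0.32 to -0.05 in Cip2a-/- 2-week libraries, lowest in library 1. With the length and GC slopes as terms, the interaction was -0.86 for Tubgcp6, -0.78 for Mdc1, -1.02 for Dot1l, -0.81 for Tet3 and 1.64 for Atp6v0e2.

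A pair of negative genes rested on a few libraries. Ifi202b, an interferon-inducible DNA-binding protein of the Ifi200 family, was at 6.55, 7.26 and 9.19 CPM in WT untreated, 15.9, 9.44 and 13.3 CPM in WT 2-week, 5.98, 0 and 9.79 CPM in Cip2a-/- untreated and 0, 0.169 and 0 CPM in Cip2a-/- 2-week libraries. It was thus near 0 in 4 of 6 Cip2a-/- libraries, 1 of them untreated, and its reads cannot be separated with certainty from those of near-identical family members. Its fitted value of -6.97 ± 1.77 depends on libraries at 0 and is no fold. Lor, the loricrin of the skin's cornified envelope, reached 41.9 CPM in Cip2a-/- untreated library 3 and stayed at or below 1.44 CPM in the other 11 libraries. Without that library its interaction went from -10.28 to -3.40. The same library held Krt77, a keratin of sweat glands and epidermis, at 98.7 CPM, and epidermal markers (3 of 3) summed to 209 CPM there against at most 16.5 CPM elsewhere; their part in the result was not tested.

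The DMBA effect averaged over the genotypes called 4 genes (0.0258%) by edgeR: Gdf15, Ephx1, the clone-named C130026I21Rik and Syt17, the last with a mean under 1 CPM; these last 2 fall outside the ranking rule. By that rule the 5 genes of smallest p were Gdf15, Ephx1, Zmat3, Celf5 and Cdkn1a. None of the 5 passed for the interaction. Gdf15, a stress cytokine induced by p53, was at 0.564, 0.614 and 0.388 CPM in WT untreated, 4.33, 8.32 and 24.99 CPM in WT 2-week, 0.179, 0.330 and 0.869 CPM in Cip2a-/- untreated and 25.4, 20.1 and 13.5 CPM in Cip2a-/- 2-week libraries. It rose by 4.99 ± 0.53 averaged over the genotypes (edgeR adjusted p = 0.00237), with 4.57 in WT, 5.40 in Cip2a-/- glands and an interaction of 0.83 ± 0.94, an interval from -1.18 to 2.85. Its interaction was 0.42 without WT 2 weeks library 1, 0.48 without Cip2a-/- untreated library 1, 1.66 without Cip2a-/- untreated library 3 and 1.82 without WT 2 weeks library 3. Cdkn1a, the p21 inhibitor of cyclin-dependent kinases, went from 29.4, 38.5 and 84.6 to 139, 164 and 695 CPM in WT and from 29.4, 43.8 and 65.2 to 1081, 655 and 432 CPM in Cip2a-/- libraries. Within WT, library 3 stood high for Gdf15, Cdkn1a and Zmat3 and within Cip2a-/- library 1 did, and the 2-week ranges of the genotypes overlapped for all 3 genes. The interactions were 1.26 ± 1.04 for Cdkn1a and 0.26 ± 0.48 for Zmat3, an RNA-binding p53 target; the latter went to -0.023 without WT 2 weeks library 1 and to -0.029 without Cip2a-/- 2 weeks library 1. Cdkn1a was 0.68 without WT untreated library 3, and without WT 2 weeks library 3 the values were 2.39 for Cdkn1a and 0.87 for Zmat3.

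Ephx1, the epoxide hydrolase of the DMBA activation route, had the smallest interaction p of these 5. It was at 135, 148 and 182 CPM in WT untreated, 174, 212 and 369 CPM in WT 2-week, 101, 97.8 and 111 CPM in Cip2a-/- untreated and 344, 407 and 295 CPM in Cip2a-/- 2-week libraries. The Cip2a-/- untreated libraries were below every WT untreated one, the Cip2a-/- groups were far apart and the WT groups overlapped at 174 to 182 CPM. The effect was 1.76 ± 0.24 in Cip2a-/- (edgeR adjusted p = 0.0369) and 0.70 ± 0.23 in WT glands, and the interaction of 1.06 ± 0.33 had an unadjusted p of 0.0058 and an adjusted p of 0.999. Celf5, an RNA-binding splicing regulator, had effects of 1.45 in WT and 3.33 in Cip2a-/- glands and an interaction of 1.88 ± 0.78 (2.88 without WT 2 weeks library 3). Mgmt, which removes alkyl groups from guanine, was at 16.7, 13.7 and 14.0 CPM and then 13.3, 15.2 and 29.6 CPM in WT, and at 12.5, 12.7 and 11.5 CPM and then 39.5, 38.4 and 27.8 CPM in Cip2a-/- libraries. Its Cip2a-/- groups did not overlap and its WT groups did, with an interaction of 1.14 ± 0.50 (unadjusted p = 0.039).

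**Figure D4:**
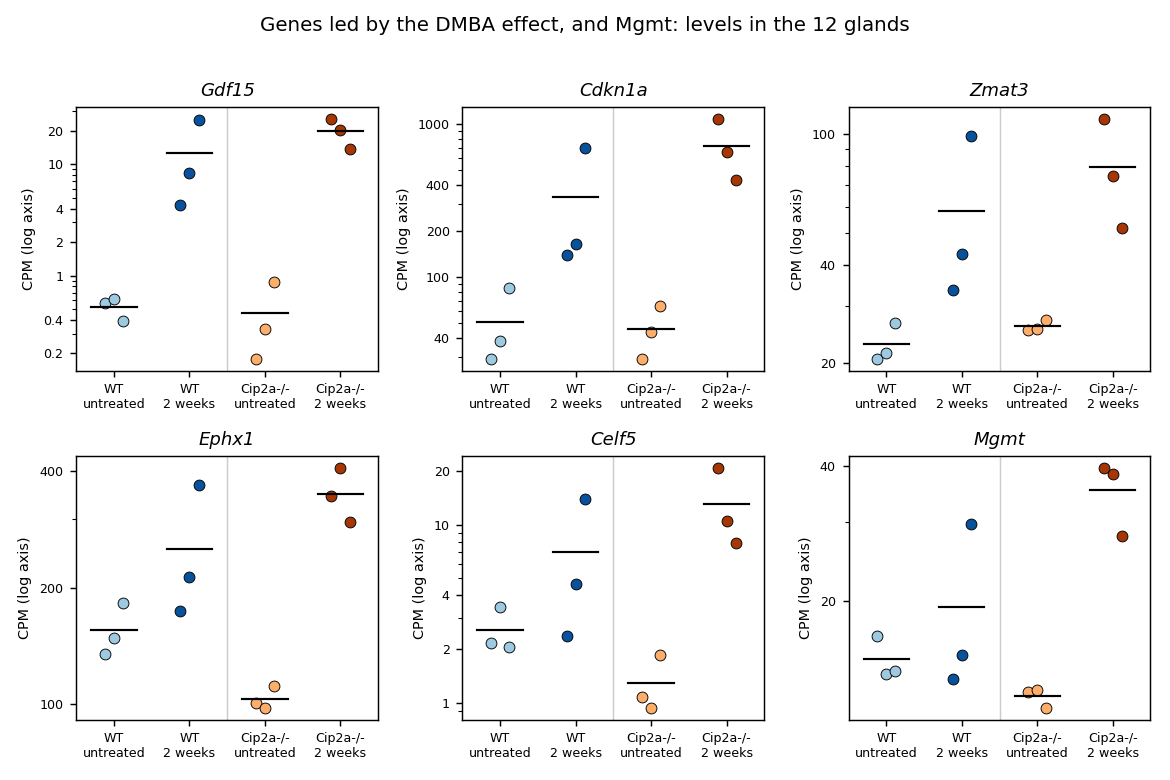
CPM (vertical axis, logarithmic) of Gdf15, Cdkn1a, Zmat3, Ephx1, Celf5 and Mgmt in the 12 libraries, by group. Points are libraries and lines are group means. All Cip2a-/- 2-week points lie above all Cip2a-/- untreated points in each gene, and WT 2 weeks library 3 is the highest of its group.

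Among p53 targets of cell cycle arrest and feedback, 14 of 18 had a positive interaction and 0 passed the test. The list's median effect was 0.77 in WT and 1.36 in Cip2a-/- glands, with a median interaction of 0.30 (0.19 without WT 2 weeks library 1 and 0.57 without WT 2 weeks library 3). In both genotypes 12 of the 18 were higher after DMBA without overlap, against 1.21% of all genes. Ccng1, cyclin G1, had 1.49 ± 0.89 and Mdm2, the ligase that limits p53, 0.52 ± 0.42, and the largest single value of Ccng1, 1143 CPM, was in Cip2a-/- 2 weeks library 1. Without that library they were 0.60 for Ccng1 and 0.20 for Mdm2; Mdm2 was 0.31 without WT 2 weeks library 1 and 0.92 without library 3. Of 14 apoptotic p53 targets 9 were positive (median 0.39, and 0.17 without Cip2a-/- 2 weeks library 1): Bbc3, the BH3-only protein Puma, had 0.80 ± 0.40 and the death receptor Fas 0.52 ± 0.26. Of 20 DNA repair and checkpoint genes 9 were positive (median -0.20, and -0.05 without Cip2a-/- 2 weeks library 3), with Chek1, the checkpoint kinase of stalled replication, at -1.88 ± 0.83. Among 17 genes of aryl hydrocarbon receptor signalling and DMBA metabolism 11 were positive (median 0.28, with 0.18 without Cip2a-/- untreated library 2 and 0.48 without WT untreated library 3). Gstm1, a glutathione transferase, was the 1 member whose levels crossed, against 0.555% of all genes, and is named for this. Its interaction was 1.09 ± 0.56, and 0.70 with GC and length slopes as terms.

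Stress response genes leaned to positive interactions. Of 18 genes of the integrated stress response 15 were positive, with a median of 0.43 (0.28 without WT untreated library 2), from median effects of -0.15 in WT and 0.27 in Cip2a-/- glands, and 0 passed the test. Gadd45a, a growth arrest and damage gene, was at 32.7, 31.1 and 33.3 CPM in WT untreated, 21.4, 19.9 and 19.0 CPM in WT 2-week, 17.4, 18.9 and 15.98 CPM in Cip2a-/- untreated and 26.3, 22.2 and 32.7 CPM in Cip2a-/- 2-week libraries. Its levels crossed with narrow groups, and the interaction was 1.32 ± 0.63 with all 18 libraries (unadjusted p = 0.055) and 1.32 ± 0.21 with the 12 alone (unadjusted p = 6.4e-05, adjusted p = 0.325). With GC and length slopes as terms Gadd45a came to 0.88 ± 0.59. Crossing members of this list were 3, Gadd45a, the transcription factor Ddit3 and the serine synthesis enzyme Psat1, against 0.555% of all genes; Ddit3, Psat1 and Gstm1 are named for this after their values were seen. The interaction was 0.62 ± 0.30 for Ddit3 (0.32 with the slope terms) and 1.15 ± 0.72 for Psat1. Phgdh, the first enzyme of serine synthesis, had 1.69 ± 0.70.

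Among 16 heat shock chaperone genes 9 were positive (median 0.07, and -0.02 without WT 2 weeks library 1). Cryab, the small heat shock protein alpha-B crystallin, was at 206, 159 and 174 CPM and then 95.7, 126 and 114 CPM in WT, and at 107, 111 and 145 CPM and then 457, 194 and 238 CPM in Cip2a-/- libraries, which crossed (1.97 ± 0.79). Cryab shares its locus with Hspb2 on the other strand, and its highest value was in the library with the most muscle RNA. Without that library its interaction was 1.56 ± 0.80, and Hspb1, a related chaperone, went from 1.03 ± 0.44 to 0.62 ± 0.37. For PP2A, the target of the Cip2a protein, 17 of 25 subunit and inhibitor genes were positive with a median of 0.09 (0.04 without Cip2a-/- 2 weeks library 1 and 0.16 without Cip2a-/- untreated library 1), and 0 passed the test. Ensa, a PP2A inhibitor of mitosis, had 0.41 ± 0.22 and Strn, a regulatory subunit, -0.87 ± 0.53; Strn was -0.45 without Cip2a-/- untreated library 1 and -1.31 without Cip2a-/- 2 weeks library 1. Of the 25 tested genes near Cip2a on chromosome 16, Cip2a included, 14 were positive (median 0.08, with -0.17 without Cip2a-/- 2 weeks library 2 and 0.19 without WT 2 weeks library 2).

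Cell division genes differed in the opposite direction. All 30 genes of the G2 and M phases had a negative interaction, with a median of -1.15, and 0 passed the test. The median effect was 0.76 in WT and -0.49 in Cip2a-/- glands, and 12 of 30 were higher after DMBA without overlap in WT against 14.2% of all genes. The mean log2 CPM of these 30 genes, each centred over the 12 libraries, was -0.14, -0.69 and -1.08 in WT untreated, 0.16, 0.18 and -0.09 in WT 2-week, -1.50, 1.14 and 1.25 in Cip2a-/- untreated and 0.18, 0.33 and 0.26 in Cip2a-/- 2-week libraries. The treated groups were thus alike and narrow, and the Cip2a-/- untreated group was split, with libraries 2 and 3 the highest of all and library 1 the lowest. Without library 1 the median was -1.60 and without library 3 it was -0.82. With both Cip2a-/- untreated library 3 and Cip2a-/- 2 weeks library 1 left out, 28 of 30 stayed negative.

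Ncapg2, a condensin II subunit, had the smallest p of the list (-1.10 ± 0.43), at 3.25, 4.24 and 2.88 CPM in WT untreated, 7.94, 6.18 and 4.29 CPM in WT 2-week, 7.95, 8.53 and 11.1 CPM in Cip2a-/- untreated and 10.9, 6.86 and 5.06 CPM in Cip2a-/- 2-week libraries. Of 30 E2F-driven S phase genes 28 were negative, with a median of -0.52, from 0.04 in WT and -0.56 in Cip2a-/- glands; it was -0.80 without Cip2a-/- untreated library 1 and -0.33 without library 3. Mcm6, a subunit of the replicative helicase, was at 17.3, 19.9 and 21.0 CPM and then 11.1, 48.3 and 30.0 CPM in WT, and at 19.1, 63.7 and 62.7 CPM and then 20.3, 19.1 and 15.2 CPM in Cip2a-/- libraries (-2.03 ± 0.77, unadjusted p = 0.019). Cip2a-/- untreated libraries 2 and 3 and WT 2 weeks library 2 were the highest, and the interaction was -1.46 without that WT library. The 2 Cip2a-/- libraries differed in their other cells: library 2 had the highest milk protein markers of its group (844 CPM, 3 of 3 measured) and library 3 the highest T cell (163 CPM, 4 of 4) and B cell (445 CPM, 4 of 4) markers, and their part in the result was not tested.

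Epithelial, fat and interferon lists also had negative medians without a gene passing. General epithelial genes were negative in 16 of 16, with a median of -0.91, from 0.56 in WT and -0.11 in Cip2a-/- glands, and with GC and length slopes as terms in 10 of 16 with a median of -0.15. The median was -0.35 without Cip2a-/- untreated library 2. Summed luminal markers (3 of 3) were from 323 to 767 CPM in WT untreated and from 854 to 1571 CPM in WT 2-week libraries, without overlap, and from 350 to 811 and from 470 to 761 CPM in Cip2a-/- ones, which overlapped. Hormone-sensing luminal genes were negative in 15 of 16 (median -0.78, and -0.38 without Cip2a-/- untreated library 2). Their median DMBA effect was above 0 in both genotypes, 0.94 in WT and 0.30 in Cip2a-/- glands. The summed markers (3 of 3) were higher after DMBA without overlap in both. They went from 55.2 to 153 CPM up to 189 to 519 CPM in WT libraries. In Cip2a-/- libraries they went from 105 to 135 CPM up to 160 to 462 CPM. Prom1, a membrane protein of these cells, was at 40.4, 28.6 and 48.5 CPM in WT 2-week and 16.6, 24.5 and 8.30 CPM in Cip2a-/- 2-week libraries, with an interaction of -1.35 ± 0.80. Milk protein genes had a median of -2.76, which became 0.07 without WT 2 weeks library 1, whose milk markers summed to 1590 CPM. Fatty acid synthesis genes were negative in 17 of 18 (median -1.03, and -0.63 without Cip2a-/- untreated library 1), with Acacb, a mitochondrial acetyl-CoA carboxylase, at -2.00 ± 0.98. Brown fat genes were negative in 11 of 13 (median -2.09, and -1.18 without the same library), and the summed brown fat markers (2 of 2) reached 635 CPM in Cip2a-/- untreated library 1. Interferon-stimulated genes were negative in 19 of 20 (median -0.54); Rsad2, the antiviral enzyme viperin, was at 9.18, 10.8 and 8.49 CPM in Cip2a-/- 2-week libraries, below the 17.2 to 24.4 CPM untreated, while the WT groups overlapped (-1.04 ± 0.57).

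**Figure D5:**
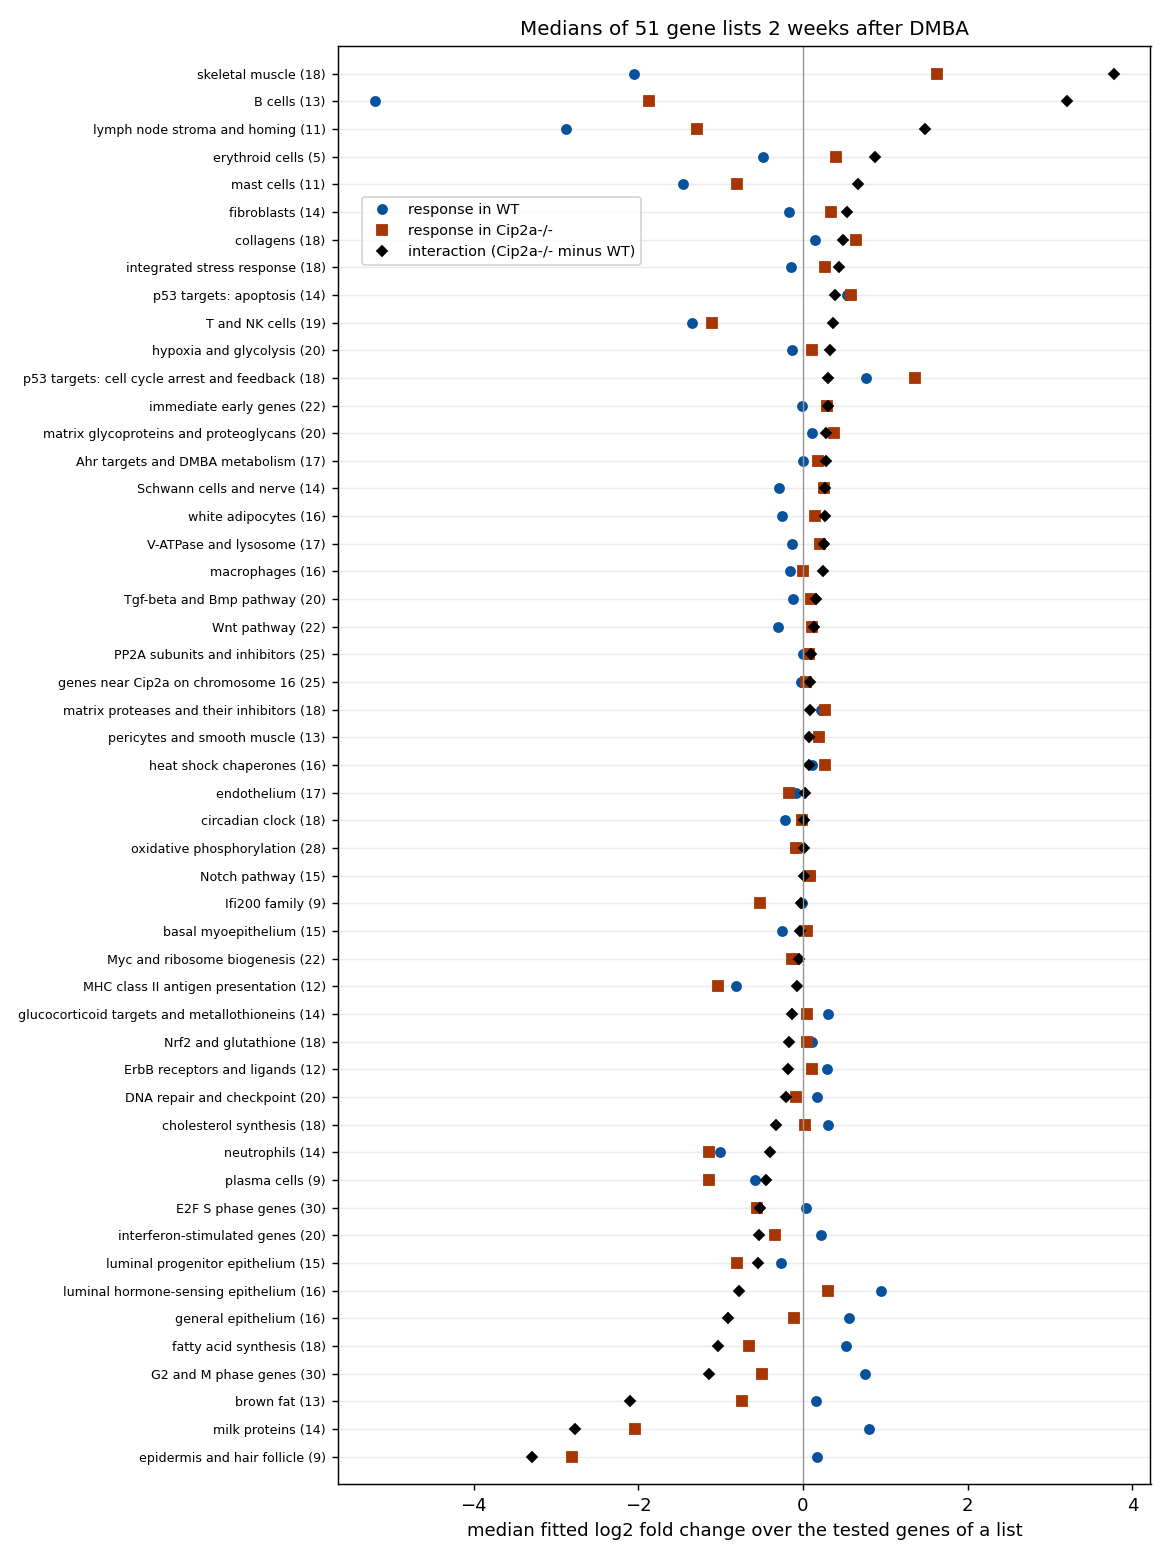
Median fitted log2 fold change (horizontal axis) over the tested genes of 51 lists, the number tested in brackets, for the DMBA effect in WT glands (circles), in Cip2a-/- glands (squares) and the interaction (diamonds). Lists are ordered by the interaction, from skeletal muscle at 3.77 to epidermis and hair follicle at -3.29. Both of these medians changed sign when 1 library was left out, while brown fat (-2.09) stayed between -2.35 and -1.18.

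The skeletal muscle and B cell lists, at the positive end, moved strongly with single libraries. Erythroid genes (5 of 5 positive, median 0.88) stayed between 0.57 and 1.13 with each library left out. B cell genes were positive in 13 of 13 with a median of 3.20, which became 0.69 without WT untreated library 1 and, with GC and length slopes as terms, -1.90 with 0 of 13 positive; their summed markers were from 6.20 to 324 CPM in WT untreated, from 2.09 to 2.70 in WT 2-week, from 10.01 to 445 in Cip2a-/- untreated and from 0.754 to 135 CPM in Cip2a-/- 2-week libraries. In each 2-week group 1 of the 4 markers was at 0 in a library. In WT 12 of the 13 B cell genes were lower after DMBA without overlap, against 11.6% of all genes. In Cip2a-/- glands 0 were, a count near the 5.48% of all genes. Cd79a, a chain of the B cell receptor, had 3.91 ± 2.60, 0.71 without WT untreated library 1 and -2.20 with GC and length slopes as terms. Blk, a B cell tyrosine kinase, had 3.24 ± 2.12, 1.31 without Cip2a-/- 2 weeks library 2 and, with the slopes, -0.58. Summed muscle markers were from 71.1 to 22918 CPM in WT untreated, from 102 to 4552 in WT 2-week, from 33.2 to 9986 in Cip2a-/- untreated and from 56.0 to 43261 CPM in Cip2a-/- 2-week libraries, with 0 of the 3 at 0. The skeletal muscle median of 3.77 became -3.66 without Cip2a-/- 2 weeks library 1, and Myl1, a fast-muscle myosin light chain, went from 3.12 ± 2.169 to -0.68. T and NK cell genes ranged from a median of -1.67 without Cip2a-/- 2 weeks library 2 to 1.59 without Cip2a-/- untreated library 3.

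The fibroblast and collagen lists had small positive medians. Of 14 fibroblast genes 13 were positive (median 0.54), and of 18 collagens 14 (median 0.49); leaving out single libraries gave medians from 0.26 to 0.85 and from 0.18 to 0.76, in both cases lowest without Cip2a-/- 2 weeks library 3 and highest without library 1. Vim, the intermediate filament vimentin, had 1.05 ± 0.42 (edgeR unadjusted p = 0.026). It was named from the basal myoepithelial list, where 7 of 15 were positive and the median was -0.03. Thbd, the endothelial anticoagulant thrombomodulin, was at 193, 227 and 191 CPM and then 123, 153 and 181 CPM in WT, and at 111, 106 and 121 CPM and then 138, 162 and 212 CPM in Cip2a-/- libraries. It crossed, with an interaction of 1.02 ± 0.35, while its list was balanced, with 10 of 17 positive and a median of 0.02. Kdr, a receptor of the same endothelial list, had -0.80 ± 0.49. Adamts1, a matrix protease, had 0.78 ± 0.39 in a list with 11 of 18 positive (median 0.08). Id3, an inhibitor of basic helix-loop-helix factors, had 0.89 ± 0.43. Its Tgf-beta and Bmp list had 12 of 20 positive (median 0.16). Hbegf, an ErbB ligand, had 1.17 ± 0.50, while its list had 4 of 12 positive (median -0.18). Oxidative phosphorylation genes were even, 14 of 28 positive with a median of 0.01.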

How the data were processed

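Poly(A) RNA of mouse mammary glands was sequenced from stranded TruSeq libraries, per the labels' protocols. The submitters' processing notes name bcl2fastq 2.17, STAR 2.5.2b, Subread 1.5.1 and mm10; no source used here gives the annotation, strand setting or treatment of multi-mapping reads. The authors deposited a table of raw counts by gene symbol with a column for each library, per the file headers, and 0 columns were unmatched. The headers carry a number per library, higher in every 2-week than in every untreated library, whose meaning no source used here gives.

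The model was fitted in edgeR 4.0.16 (R 4.3.3). The filter filterByExpr (minimum count 10, minimum total 15) kept 15482 of 23337 genes, and a quasi-likelihood model of 6 groups was fitted to all 18 libraries after TMM scaling. The code was tried beforehand on counts simulated with the same spread setting for every gene and large planted changes. That trial gives no power or error rate for these libraries. P-values were adjusted over all genes by the Benjamini-Hochberg method and called at 0.05; SE is the absolute log2 fold change over the root of F. Coordinates, transcript length and GC content are from GENCODE M21 (GRCm38), and 23131 symbols were matched to identifiers. The slope fits used 11930 genes above a mean of 5 CPM. Intervals are at 95%, and floors and counting ratios cover counting error only.

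The genes named were Cip2a, the 10 of smallest interaction p in each direction, up to 5 crossing genes per direction, the 5 of smallest p for the averaged DMBA effect, all with a mean of at least 1 CPM, and up to 2 members per direction in each described list, with 3 crossing list members added after their values were seen; 1 gene that the rule names is not reported here. The members and the 51 lists were chosen with earlier results of these data known. Alternatives were DESeq2 1.42.0 and its size factors, voom in limma 3.58.1 with and without quality weights, no filter, the 12 libraries alone, a replicate block, each library left out, and 2 added later.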

Additional observations from a re-analysis of the deposited data

Results flagged for a closer look

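In 15 of the genes named, all 3 treated libraries of one genotype lay above, and all 3 of the other below, their untreated libraries, so that the effects had opposite signs without overlap. No interaction among them passed the adjusted threshold of edgeR's quasi-likelihood test, and the genes were chosen from 15482. The naming rule picks crossing genes, and 3 more were added because they crossed. Their number and the split between directions therefore follow from the choice. Over all genes tested, 86 (0.555%) and 68 (0.439%) crossed in the 2 directions. In Cip2a-/- glands higher and in WT glands lower after DMBA were Atp6v0e2 (interaction 1.71 on the log2 scale), Mtap7d1 (0.876), Ube2r2 (0.582), Rai2 (1.37), Inpp5a (0.789), Gadd45a (1.32), Cryab (1.97), Thbd (1.02), Gstm1 (1.09), Ddit3 (0.622) and Psat1 (1.15). In the opposite direction were Tubgcp6 (-0.859), Zfp646 (-0.602), Mdc1 (-0.944) and Dot1l (-1.21). Total-count scaling in place of TMM changes how many genes cross in each direction, as the counts of 41 and 129 show.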

How the results depend on the processing

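For the interaction, 0 genes were called with the 12 libraries alone, with DESeq2's size factors, with no filter and with voom, 7 with DESeq2 and 13 with weighted voom; leaving out each library gave 0 to 1, the 1 being Atp6v0e2 without Cip2a-/- untreated library 3. The DMBA effect in WT called 0 genes, 14 with DESeq2 and 528 with weighted voom. In Cip2a-/- glands it called 2 genes, 0 with the 12 libraries alone, 36 with DESeq2, 1 with voom and 1 with weighted voom, and 0 to 3 with each library left out. Crossing genes were 86 and 68, and 41 and 129 with total-count scaling (154 and 170 in all). The cause of these shifts was not tested. With a replicate block the counts were 0, 0 and 2; same-numbered libraries did not deviate together (r from -0.47 to 0.48, 6 of 18 pairs over 0.1), so the numbers were not taken to pair them, and 2 of 12 libraries correlated best with their own number. In 2 fits chosen after seeing the data, with GC and length slopes as terms and without Cip2a-/- untreated library 3 and Cip2a-/- 2 weeks library 1 together, 0 genes were called for the interaction and 0 in Cip2a-/- glands. Of 75 genes followed singly, 4 changed sign: Zmat3 (-0.037 without both Cip2a-/- libraries, -0.029 to 0.87 with each library left out, below 0 without WT 2 weeks library 1 or Cip2a-/- 2 weeks library 1), Blk (-0.58) and Cd79a (-2.20) with the slope terms, and Myl1 (-0.48 with weighted voom, -0.76 without both, -0.68 to 4.04 with each left out, lowest without Cip2a-/- 2 weeks library 1). With 3 libraries per group and all 18 in the model, edgeR did not call the interaction of Atp6v0e2 (1.71), the smallest p.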
